A study of Mus musculus with 9 samples.

Results

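The ABCC genes of the mouse liver were followed after 5 days of treatment with AdipoRonPEG5, a PEGylated analog of AdipoRon that carries polyethylene glycol, with AdipoRon itself, an orally active compound that activates adiponectin receptors, or with PBS vehicle. A gene is said to be called, to rise or to fall where its edgeR adjusted p was under 0.05. Members were the 10 genes of the family chosen by symbol, Abcc1 to Abcc6, Abcc8, Abcc9, Abcc10 and Abcc12, out of 35275 entries in the table, and 9 of the 10 had a count in at least 1 library. Each group held 3 liver libraries from C57BL/6 mice, with no engineered allele named. The labels give 5 mg/kg and 2 injections a day for AdipoRonPEG5, AdipoRon and the PBS vehicle in 1 sentence, and since PBS has no such dose, the amount of compound given cannot be stated firmly. They state neither age, sex nor diet, and they do not say that the libraries of a group came from separate animals, so the p-values below may measure technical spread only.

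ABCC proteins use ATP to move organic anions out of cells, above all glutathione, glucuronide and sulphate conjugates that the liver makes from drugs, bilirubin, steroids and bile acids. In hepatocytes they divide the work by membrane: Abcc2 sits on the canalicular side and secretes into bile, while Abcc3 and Abcc4 sit on the side facing the blood and return conjugates to the circulation when bile secretion is impaired. The family also holds members that do not export drugs: Abcc6 releases ATP, and Abcc8 and Abcc9 are regulatory subunits of ATP-sensitive potassium channels, so that the name efflux transporters does not describe the last pair.

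Hepatocyte markers were high in every library: 12 listed genes summed to 83400 to 93000 CPM (library-scaled, by TMM) in AdipoRonPEG5, 77900 to 87900 CPM in AdipoRon and 89400 to 102000 CPM in vehicle livers. Of these 12, 0 rose and 6 fell with AdipoRonPEG5 against vehicle (median log2 fold change -0.39). There were 0 rises and 0 falls with AdipoRon against vehicle (-0.14), and 0 rises and 3 falls with AdipoRonPEG5 against AdipoRon (-0.17). Among all tested genes, 9.55% were called higher and 7.63% lower with AdipoRonPEG5 against vehicle. The shares were 3.8% and 1.4% with AdipoRon against vehicle, and 2.68% and 2.71% between the compounds. Library totals were 14320743 to 18508950 counts in the compound groups, against 13942322, 14492307 and 39473195 counts in vehicle livers. Macrophage markers moved with both treatments. Their 18 listed genes, none at 0 in any group, summed to 905 to 951 CPM in AdipoRonPEG5 and 578 to 1020 CPM in AdipoRon livers, against 246 to 393 CPM in vehicle livers. In bulk tissue, fewer cells of a type and less RNA per cell cannot be told apart. Vehicle 3 stood apart from the other vehicle libraries in acute phase genes. Of these, 14 summed to 47600 CPM there and to 13600 and 14400 CPM in vehicle 1 and vehicle 2. The same sum was 33000, 21000 and 21300 CPM in AdipoRonPEG5 1, 2 and 3, and 14700 to 19400 CPM in AdipoRon livers.

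Abcc4 and Abcc12 were the members with the largest differences in both comparisons of AdipoRonPEG5, with higher levels in its livers. The sequences around their annotated starts are shown because these 2 genes moved together, with that of Abcc2 as a family member whose level was not called different. Each window holds 250 bases before and 50 bases after a start, from RefSeq on GRCm38.p6, 5′ to 3′ on the gene's own strand. Of the 10 members, 6 had 8 such windows, and none was given for Abcc1, Abcc3, Abcc6 and Abcc8. Capitals mark 3 motifs searched on both strands: TGACNNNGC, the core of the antioxidant response element bound by NRF2; AGGTCA, a core bound by nuclear receptors; and GCGTG, the core bound by the aryl hydrocarbon receptor.
Abcc4 start site 1, chr14:118706170-118706469, minus strand: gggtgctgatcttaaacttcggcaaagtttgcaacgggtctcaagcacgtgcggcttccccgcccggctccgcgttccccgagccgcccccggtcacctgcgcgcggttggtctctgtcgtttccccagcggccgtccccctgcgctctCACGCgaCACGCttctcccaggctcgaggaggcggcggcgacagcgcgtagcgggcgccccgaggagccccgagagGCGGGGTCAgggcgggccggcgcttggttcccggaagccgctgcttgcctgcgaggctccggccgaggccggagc
Abcc4 start site 2, chr14:118676882-118677181, minus strand: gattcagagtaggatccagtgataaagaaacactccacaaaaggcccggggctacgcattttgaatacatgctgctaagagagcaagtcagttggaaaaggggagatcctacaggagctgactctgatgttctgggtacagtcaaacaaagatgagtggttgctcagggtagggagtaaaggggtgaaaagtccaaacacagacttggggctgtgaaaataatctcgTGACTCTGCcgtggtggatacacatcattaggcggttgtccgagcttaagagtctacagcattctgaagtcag
Abcc12, chr8:86566541-86566840, minus strand: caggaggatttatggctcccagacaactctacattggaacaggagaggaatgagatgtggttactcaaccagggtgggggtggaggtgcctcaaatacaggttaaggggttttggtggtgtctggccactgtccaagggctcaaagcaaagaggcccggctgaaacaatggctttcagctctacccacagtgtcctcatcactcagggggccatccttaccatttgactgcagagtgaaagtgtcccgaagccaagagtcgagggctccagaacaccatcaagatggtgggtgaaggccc
Abcc2, chr19:43782058-43782357, plus strand: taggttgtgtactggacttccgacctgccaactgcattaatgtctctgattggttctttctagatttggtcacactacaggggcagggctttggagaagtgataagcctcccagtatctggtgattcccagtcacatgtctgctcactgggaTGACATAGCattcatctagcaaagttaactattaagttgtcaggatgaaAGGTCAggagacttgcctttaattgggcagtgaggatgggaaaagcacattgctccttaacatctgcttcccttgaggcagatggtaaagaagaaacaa

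The Abcc4 windows held the antioxidant response core at base 226 of the first (as GCGGGGTCA, the reverse strand) and at base 228 of the second (as TGACTCTGC), and the first also held the GCGTG core at bases 150 and 157, on the reverse strand (CACGC). The Abcc2 window held TGACATAGC at base 153 and AGGTCA at base 202. No motif of the 3 lay in the Abcc12 window. Over the members, 5 of 8 windows from 3 genes (Abcc2, Abcc4 and Abcc10) held the antioxidant core. AGGTCA lay in 3 of 8 windows, from 2 genes (Abcc2 and Abcc10), and GCGTG in 1 of 8, from Abcc4. Motifs did not overlap in the windows shown. Among all 32851 windows of the same length, 12.4% held the antioxidant core, 16.3% held AGGTCA and 32.4% held GCGTG. The first Abcc4 window was rich in G and C (72.7%, 41 CpG), and the Abcc12 and Abcc2 windows were not (53.7% with 3 CpG and 45% with 1 CpG). These matches are letters in a window and say nothing of binding.

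Abcc4, the exporter on the blood side that carries bile acids together with glutathione, cyclic nucleotides and prostaglandins, rose with AdipoRonPEG5. It stood at 7.22, 6.18 and 7.95 CPM in AdipoRonPEG5 livers, at 1.30, 1.44 and 0.957 CPM in AdipoRon livers and at 0.823, 0.673 and 1.12 CPM in vehicle livers. All 3 AdipoRonPEG5 libraries lay above all others, while the AdipoRon and vehicle libraries overlapped. AdipoRonPEG5 livers had 8.21 times the vehicle level (95% interval 5.78 to 11.7; log2 fold change 3.04 ± 0.23 (SE), edgeR quasi-likelihood test, Benjamini-Hochberg adjusted p = 3.9e-05 over 13151 genes). Set against AdipoRon livers, the fold was 5.7 (4.06 to 7.99; edgeR adjusted p = 0.000252). AdipoRon against vehicle gave a log2 fold change of 0.53 ± 0.27 with an interval of -0.06 to 1.12 (edgeR adjusted p = 0.281), which does not show equal levels. Summed over a group, 365 counts in AdipoRonPEG5 livers stood against 56 in vehicle livers, a ratio of 8.29 whose counting interval was 6.24 to 11.2.

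Abcc12, an orphan member with no settled substrate, had the largest fold of the family with AdipoRonPEG5. Its raw counts were 58, 92 and 61 in AdipoRonPEG5, 6, 3 and 7 in AdipoRon and 5, 4 and 2 in vehicle livers. On the CPM scale these were 3.58, 4.78 and 3.76 CPM in AdipoRonPEG5, 0.370, 0.167 and 0.478 CPM in AdipoRon, and 0.129, 0.299 and 0.149 CPM in vehicle livers. AdipoRonPEG5 libraries were again above every other library, and the other groups overlapped close to the floor of 3 counts (0.076 to 0.215 CPM). Abcc12 rose 22.7-fold with AdipoRonPEG5 against vehicle (95% interval 12.7 to 40.6; log2 fold change 4.51 ± 0.38, edgeR adjusted p = 8.9e-05) and 12-fold against AdipoRon (7.05 to 20.6; edgeR adjusted p = 0.000507). The 211 summed counts of AdipoRonPEG5 livers against 11 of vehicle livers gave a ratio of 24.4, with a counting interval of 13.4 to 49.6, so that the exact size rests on few reads. AdipoRon against vehicle gave 0.92 ± 0.53 (log2, SE; edgeR adjusted p = 0.342). Both Abcc4 and Abcc12 kept their AdipoRonPEG5 calls in all 19 alternative analyses, with an adjusted p of at most 0.00111 against vehicle and 0.00439 against AdipoRon.

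**Figure D1:**
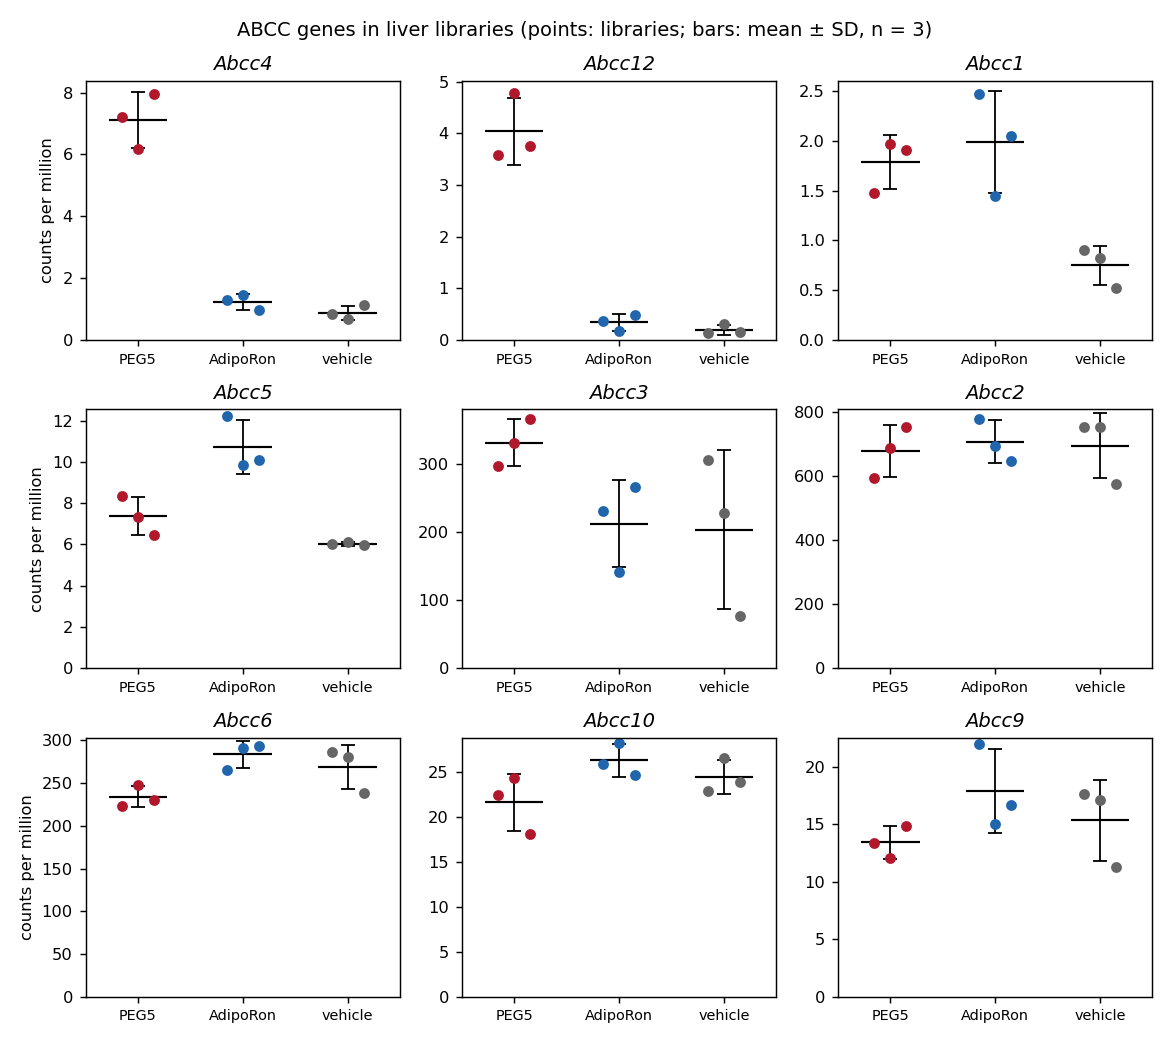
TMM-scaled CPM of the 9 counted ABCC genes in each library, by group, with the mean and SD of 3 libraries; each panel has its own axis from 0. Abcc4 (6.18 to 7.95 CPM) and Abcc12 (3.58 to 4.78 CPM) in AdipoRonPEG5 livers lay above every AdipoRon and vehicle library, and Abcc3 ran from 76.6 to 306.6 CPM within the vehicle group.

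Over the 9 tested members, 3 rose and 0 fell with AdipoRonPEG5 against vehicle (Abcc1, Abcc4 and Abcc12), where 9.55% of all tested genes were called higher and 7.63% lower. With AdipoRon against vehicle 2 rose and 0 fell (Abcc1 and Abcc5), beside 3.8% of all genes higher and 1.4% lower. With AdipoRonPEG5 against AdipoRon 2 rose (Abcc4 and Abcc12) and 1 fell (Abcc5), beside 2.68% higher and 2.71% lower. The median log2 fold change of the members was 0.29, 0.21 and -0.14 in these 3 comparisons, and that of all genes -0.001, 0.006 and -0.013. Both comparisons against vehicle share the vehicle libraries.

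**Figure D2:**
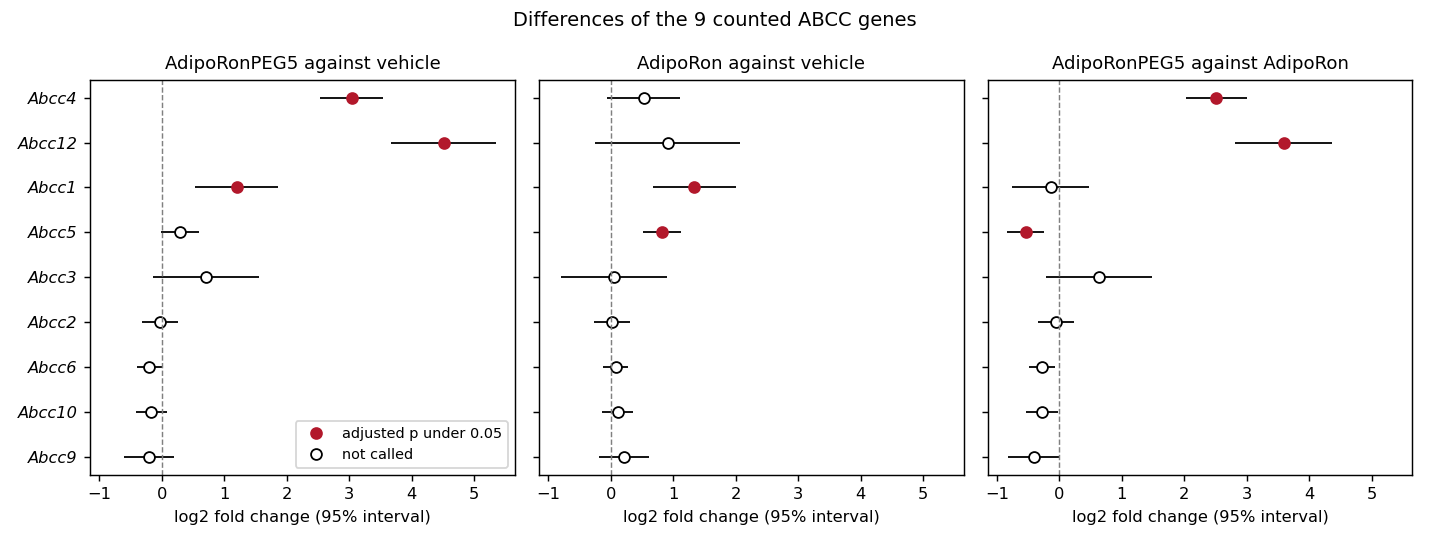
Log2 fold changes with 95% intervals of the 9 counted ABCC genes in the 3 comparisons; filled points have an edgeR adjusted p under 0.05. Abcc4 and Abcc12 stand out in both comparisons with AdipoRonPEG5 on top, Abcc1 in both comparisons against vehicle, and Abcc5 in both that involve AdipoRon.

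Abcc1, an exporter of glutathione conjugates and leukotriene C4 that is found in many cell types, was higher with both compounds. It was at 1.48, 1.97 and 1.91 CPM in AdipoRonPEG5 livers, 2.47, 1.44 and 2.05 CPM in AdipoRon livers, and 0.90, 0.822 and 0.521 CPM in vehicle livers. Every library of both compounds exceeded every vehicle library, and the compounds overlapped. Abcc1 rose 2.29-fold with AdipoRonPEG5 (95% interval 1.44 to 3.64; log2 1.2 ± 0.30, edgeR adjusted p = 0.0211) and 2.53-fold with AdipoRon (1.6 to 4.01; log2 1.34 ± 0.30, edgeR adjusted p = 0.0306). Between the compounds the log2 difference was -0.14, with an interval of -0.75 to 0.47 (edgeR adjusted p = 0.818), too wide to say that they act alike. These are small counts, 93, 96 and 53 summed over the AdipoRonPEG5, AdipoRon and vehicle libraries.

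The Abcc1 calls were less stable than those of Abcc4 and Abcc12. The AdipoRonPEG5 call ended without vehicle 2 (edgeR adjusted p = 0.0561), without AdipoRonPEG5 2 (0.0764) and without AdipoRonPEG5 3 (0.0647), and the AdipoRon call ended in 9 of 19 alternatives, at an adjusted p of up to 0.104 without AdipoRon 1; the other libraries were vehicle 1 (0.068), vehicle 2 (0.087), vehicle 3 (0.0665), AdipoRon 3 (0.0724) and AdipoRonPEG5 2 (0.0534). Of the 18 macrophage markers whose sums are given above, 17 rose with AdipoRonPEG5 and 14 with AdipoRon against vehicle, with median log2 fold changes of 1.71 and 1.33, and 1 rose with AdipoRonPEG5 against AdipoRon. Lymphocyte markers summed to 20.3 to 20.9 CPM in AdipoRonPEG5 and 16.9 to 25 CPM in AdipoRon livers, against 7.55 to 9.89 CPM in vehicle livers. Ptprc alone averaged 11.8, 12.6 and 4.30 CPM in these groups, so much of each sum is 1 gene. Of 9 tested lymphocyte markers, 5 rose and 1 fell with AdipoRonPEG5 against vehicle. The fall was that of Cd4, at 0.746 against 2.10 CPM. With AdipoRon against vehicle 3 rose and 0 fell. Beside both lists, 9.55% of all tested genes were called higher and 7.63% lower with AdipoRonPEG5 against vehicle. The shares were 3.8% and 1.4% with AdipoRon against vehicle, and 2.68% and 2.71% between the compounds. The part of either marker list in the Abcc1 result was not tested.

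Abcc5, which exports cyclic nucleotides and glutamate conjugates, rose with AdipoRon against vehicle. It had 8.33, 7.32 and 6.47 CPM in AdipoRonPEG5 livers, 12.2, 9.83 and 10.1 CPM in AdipoRon livers, and 6.01, 6.13 and 5.95 CPM in vehicle livers. The 3 groups did not overlap: AdipoRon was highest, AdipoRonPEG5 lay between, and the vehicle libraries had an SD of 0.0900 CPM. AdipoRon livers had 1.78 times the vehicle level (95% interval 1.44 to 2.19; log2 0.83 ± 0.14, edgeR adjusted p = 0.00946), a call kept in all 19 alternatives. AdipoRonPEG5 against vehicle gave 0.29 ± 0.14 (log2, interval -0.02 to 0.60; edgeR adjusted p = 0.187). Abcc5 was lower in AdipoRonPEG5 than in AdipoRon livers (log2 -0.54 ± 0.14, edgeR adjusted p = 0.0456), a call at the threshold that ended in 12 of 19 alternatives, among them those with total-count scaling (0.0504), with only these 2 groups fitted (0.0641), with vehicle 3 and AdipoRonPEG5 1 left out (0.0502), and without AdipoRonPEG5 1, 2 or 3 (0.0596, 0.135 and 0.14), AdipoRon 1, 2 or 3 (0.134, 0.0705 and 0.0841) or vehicle 1 or 2 (0.0566 and 0.0705).

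Abcc2, the canalicular exporter of bilirubin glucuronides and glutathione conjugates, was the most abundant member and did not pass the test anywhere. Its level per transcript length was 75.2, 89.0 and 92.9 FPKM in AdipoRonPEG5 livers, 100.6, 88.3 and 82.4 FPKM in AdipoRon livers and 92.4, 90.1 and 66.6 FPKM in vehicle livers. The groups overlapped. With AdipoRonPEG5 against vehicle the fold was 0.977, with a 95% interval of 0.8 to 1.19 (edgeR adjusted p = 0.895); with AdipoRon it was 1.02, with an interval of 0.833 to 1.24 (edgeR adjusted p = 0.934).

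Abcc3, the glucuronide exporter on the blood side, varied more between libraries than any other abundant member. It was at 297.4, 330.8 and 365.6 CPM in AdipoRonPEG5 livers, 230.5, 141.5 and 265.6 CPM in AdipoRon livers, and 306.6, 227.4 and 76.6 CPM in vehicle livers. AdipoRonPEG5 libraries were above all AdipoRon libraries but overlapped vehicle 1, and vehicle 3 was far below the rest. Abcc3 did not pass the test with AdipoRonPEG5 against vehicle (log2 0.70 ± 0.39, edgeR adjusted p = 0.246), with AdipoRon against vehicle (0.06 ± 0.39, 0.95) or between the compounds (0.64 ± 0.39, 0.369). Single vehicle libraries moved both values against vehicle. Without vehicle 3 the log2 fold change was 0.31 with AdipoRonPEG5 (edgeR adjusted p = 0.378) and -0.34 with AdipoRon (0.402), and without vehicle 1 it was 1.12 (0.0836) and 0.47 (0.52). The AdipoRon value was also below 0 without AdipoRon 1 or AdipoRon 3 (-0.004 and -0.14). In vehicle 3 Nr1i3, the constitutive androstane receptor that controls drug metabolism genes, stood at 127.9 CPM, against 257.3 and 270.4 CPM in vehicle 2 and vehicle 1. Over the groups Nr1i3 averaged 188.9 ± 13.5 CPM in AdipoRonPEG5, 176.4 ± 31.4 CPM in AdipoRon and 218.5 ± 78.8 CPM in vehicle livers (SD, n = 3 each), and it was not called in any of the 3 comparisons. Without vehicle 3 it was called lower with AdipoRonPEG5 (log2 -0.49, edgeR adjusted p = 0.0266) and with AdipoRon (-0.59, 0.0323) against vehicle. The acute phase sums of vehicle 3 and of the other groups are given above. The part of either in the Abcc3 level was not tested.

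Set against Abcc2, however, Abcc3 was narrow and high in AdipoRonPEG5 livers. The FPKM ratio of Abcc3 to Abcc2 was 0.803, 0.773 and 0.777 in AdipoRonPEG5 livers, 0.475, 0.327 and 0.658 in AdipoRon livers, and 0.653, 0.484 and 0.213 in vehicle livers. Every AdipoRonPEG5 library exceeded every other library, vehicle 1 and vehicle 2 included. The same ratio does not depend on how libraries are scaled to each other; it was formed after the levels were seen and has no test. Abcc4 reached 1.7%, 1.26% and 1.48% of the Abcc2 level per length in AdipoRonPEG5 livers, against 0.233%, 0.292% and 0.207% in AdipoRon and 0.153%, 0.125% and 0.271% in vehicle livers. The rise of Abcc4 left it a small part of the family's mRNA.

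**Figure D3:**
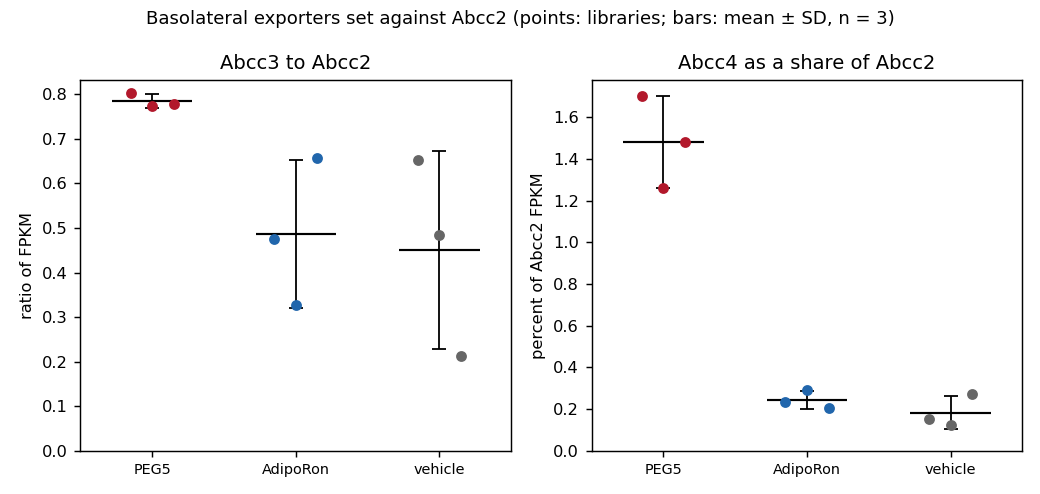
FPKM of Abcc3 as a ratio to Abcc2 (left) and of Abcc4 as a percent of Abcc2 (right) in each library, by group, with the mean and SD of 3 libraries. AdipoRonPEG5 libraries lay at 0.773 to 0.803 on the left and at 1.26% to 1.7% on the right, above all AdipoRon and vehicle libraries on both.

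Abcc6, which releases ATP from hepatocytes and so supplies the pyrophosphate that keeps soft tissue from calcifying, was the other abundant member. It was at 223.6, 247.8 and 230.7 CPM in AdipoRonPEG5 livers, 265.9, 291.5 and 293.4 CPM in AdipoRon livers, and 286.7, 280.6 and 238.8 CPM in vehicle livers. AdipoRonPEG5 libraries lay below all AdipoRon libraries and overlapped vehicle 3. Abcc6 was not called with AdipoRonPEG5 against vehicle (log2 -0.20 ± 0.09, edgeR adjusted p = 0.165) or against AdipoRon (-0.28 ± 0.09, 0.109). Without vehicle 3 the value against vehicle was -0.28 and passed the test (edgeR adjusted p = 0.0414).

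Of the less abundant members, Abcc10, a broad exporter of lipophilic drugs and conjugates, was at 18.1 to 24.4 CPM in AdipoRonPEG5, 24.7 to 28.3 CPM in AdipoRon and 22.9 to 26.6 CPM in vehicle livers. Abcc9, the SUR2 subunit of potassium channels in smooth muscle and pericytes, was at 12 to 14.9 CPM in AdipoRonPEG5, 15 to 22.0 CPM in AdipoRon and 11.3 to 17.6 CPM in vehicle livers. Neither passed the test in any comparison, although both, like Abcc6, were lower in every AdipoRonPEG5 library than in every AdipoRon library (log2 -0.28 ± 0.11 with an edgeR adjusted p of 0.181 for Abcc10, and -0.41 ± 0.18 with 0.221 for Abcc9). Kcnj8, the pore subunit that pairs with Abcc9 and lies next to it on the GRCm38.p6 assembly, averaged 3.25 CPM in AdipoRonPEG5, 2.17 CPM in AdipoRon and 2.09 CPM in vehicle livers and was not called. Abcc8, the SUR1 subunit of insulin-secreting cells, had 0 counts in all 9 libraries, a limit of 3 counts or 0.076 to 0.215 CPM in each, and its partner Kcnj11 had 1 count in 1 AdipoRon library and 0 in the rest. Stellate cell and pericyte markers, which bear on Abcc9, summed to 335 to 357 CPM in AdipoRonPEG5, 315 to 415 CPM in AdipoRon and 219 to 342 CPM in vehicle livers; their part in its level was not tested.

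Per transcript length the family fell into an abundant and a scarce set. Abcc2, Abcc3 and Abcc6 together held 94.9% to 96.0% of the summed FPKM of the members in AdipoRonPEG5, 94.8% to 95.4% in AdipoRon and 94.8% to 96.4% in vehicle livers. Abcc2 was first in each group. Abcc3 was second in AdipoRonPEG5 livers (67.1 ± 6.09 FPKM), above Abcc6 (47.8 ± 3.52 FPKM) with no overlap. In AdipoRon livers Abcc6 was above Abcc3 without overlap (58.5 ± 2.71 against 43.6 ± 13.2 FPKM), and in vehicle livers these 2 overlapped (51.8 ± 6.45 and 39.4 ± 23.4 FPKM; SD, n = 3 each). Abcc10 and Abcc9 followed in every group, at 1.39 to 5.50 FPKM in any library, with Abcc9 overlapping Abcc5 in AdipoRon livers. Abcc1 and Abcc4 overlapped in AdipoRon and in vehicle livers. At the low end Abcc4 reached the level of Abcc5 in AdipoRonPEG5 livers (1.26 ± 0.13 and 1.29 ± 0.18 FPKM, overlapping), and Abcc12 (0.778 ± 0.142 FPKM) stood above Abcc1 (0.267 ± 0.041 FPKM). In AdipoRon and vehicle livers Abcc12 was the lowest counted member, at 0.0658 ± 0.0307 and 0.0348 ± 0.0169 FPKM.

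**Figure D4:**
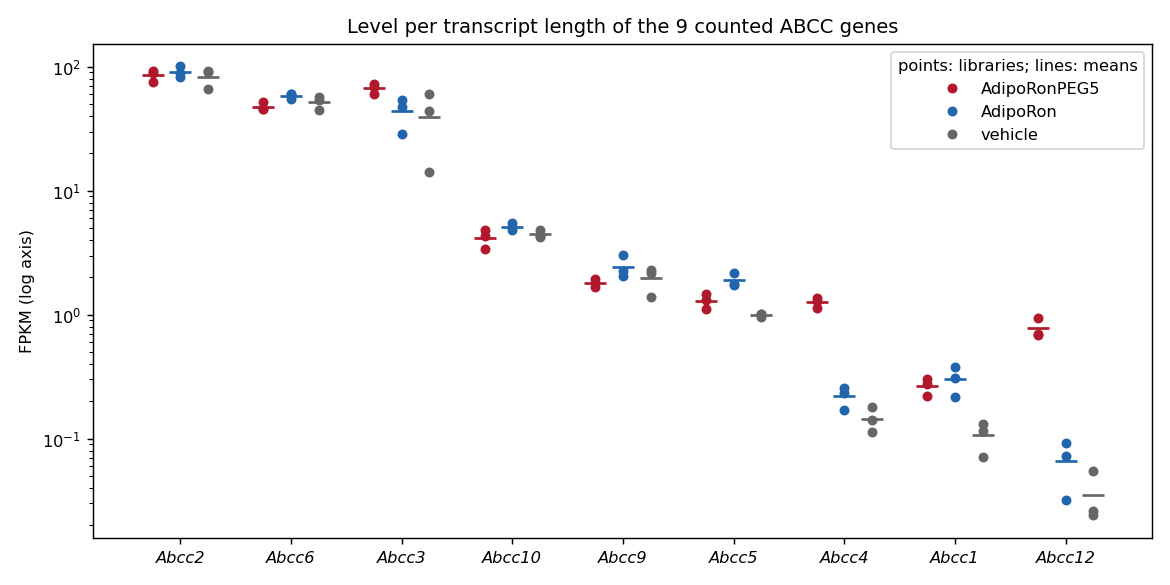
FPKM of the 9 counted ABCC genes on a log axis, with a point for each library and a line for each group mean. Abcc2, Abcc6 and Abcc3 lie between 14.2 and 100.6 FPKM and the other members at or below 5.50 FPKM; Abcc4 and Abcc12 in AdipoRonPEG5 livers leave the low range they hold in the other groups.

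Other ABC proteins were counted to set the family beside its relatives. With AdipoRonPEG5 against vehicle, 9.55% of all tested genes were called higher and 7.63% lower. Of 33 tested proteins of the ABCA, ABCB, ABCD, ABCE, ABCF and ABCG groups, 6 rose and 5 fell with AdipoRonPEG5 against vehicle, with log2 fold changes from -0.84 to 1.43 and a median of 0.02. The rises were those of Abcg1, Abcg2, Tap1, Abca9, Abcg3 and Tap2. The last 3 calls ended in 15, 10 and 7 of 19 alternatives, each without vehicle 2, vehicle 3, AdipoRon 3, AdipoRonPEG5 1 or AdipoRonPEG5 3 among others (adjusted p of up to 0.167). The falls were those of Abcb11, Abca2, Abcb8, Abcd4 and Abcg8, and the last 4 calls ended in 4 to 11 of 19 alternatives, each without AdipoRonPEG5 2 and without vehicle 2 among others (adjusted p of up to 0.237). With AdipoRon 1 rose and 0 fell: Abcg1, whose call ended without vehicle 1, vehicle 2, AdipoRon 1 or AdipoRon 2 (up to 0.068). With AdipoRonPEG5 against AdipoRon 0 rose and 2 fell, Abcb11 and Abca2, and that of Abca2 ended without AdipoRon 1, AdipoRon 2, AdipoRonPEG5 1 or AdipoRonPEG5 2 (up to 0.0773). The largest rise outside the ABCC genes, that of the cholesterol exporter Abcg1 with AdipoRonPEG5 (1.43 ± 0.22, edgeR adjusted p = 0.00178), was smaller than the log2 values of Abcc4 and Abcc12. Abcb11, the bile salt export pump that works beside Abcc2 in the canalicular membrane, fell to 235.7 ± 9.46 CPM in AdipoRonPEG5 livers, against 379.3 ± 17.5 CPM in vehicle livers (SD, n = 3 each; log2 -0.69 ± 0.09, edgeR adjusted p = 0.000665); it was at 332.3 ± 25.7 CPM in AdipoRon livers, and it was also lower in AdipoRonPEG5 than in AdipoRon livers (-0.50 ± 0.09, adjusted p = 0.0104). Abcg2, a canalicular exporter of sulphate conjugates, rose to 107.9 ± 6.65 CPM in AdipoRonPEG5 livers, against 69.3 ± 6.76 CPM in vehicle livers (log2 0.64 ± 0.11, edgeR adjusted p = 0.00301). These calls of Abcb11, of Abcg2 and of Abcg1 with AdipoRonPEG5 against vehicle held in all alternatives. Slc10a1, the main uptake carrier for bile salts, fell to 412.6 ± 31.2 CPM in AdipoRonPEG5 livers, against 635.8 ± 97.8 CPM in vehicle livers (log2 -0.62 ± 0.12, edgeR adjusted p = 0.00561). The cystic fibrosis channel Cftr, itself an ABCC relative, had at most 11 counts in a library and was not tested.

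Genes that share known regulators with the ABCC exporters were then counted. NRF2, the transcription factor of the antioxidant response encoded by Nfe2l2, is known to drive Abcc4 and other members in mouse liver. Of 29 tested NRF2 target genes outside the family, 23 rose and 0 fell with AdipoRonPEG5 against vehicle (median log2 fold change 1.02). The other 6, Gclc, Gclm, Txnrd1, Taldo1, Me1 and Gstp1, were not called in any comparison. Targets called with AdipoRon against vehicle were 3 higher and 0 lower (0.07), and with AdipoRonPEG5 against AdipoRon 16 higher and 0 lower (0.90). Among all tested genes, 9.55% were called higher and 7.63% lower with AdipoRonPEG5 against vehicle. The shares were 3.8% and 1.4% with AdipoRon against vehicle, and 2.68% and 2.71% between the compounds. The glutathione transferase Gstm3 averaged 696.5 ± 45.3 CPM in AdipoRonPEG5, 20.2 ± 3 CPM in AdipoRon and 9.89 ± 1.76 CPM in vehicle livers (SD, n = 3 each). Blvrb, a biliverdin reductase, averaged 328.1 ± 10.3 CPM in AdipoRonPEG5, 122.4 ± 8.03 CPM in AdipoRon and 116.9 ± 15.3 CPM in vehicle livers. Close paralogs of the transferases, and of the Ugt2b enzymes below, may share reads, so their values are uncertain. The 3 targets called with AdipoRon were Gstm3 (1.01 ± 0.14, edgeR adjusted p = 0.00452), which held in all alternatives, and Hmox1 and Pgd, whose calls did not hold. The Hmox1 call ended without vehicle 1, vehicle 2 or AdipoRon 1 (adjusted p of up to 0.0593), and that of Pgd in 9 of 19 alternatives, among them those without vehicle 1, vehicle 2, AdipoRon 1, AdipoRon 2 or any AdipoRonPEG5 library (up to 0.15). The mRNA of Nfe2l2 and of its inhibitor Keap1 was not called in any comparison (with AdipoRonPEG5 against vehicle, -0.17 ± 0.10 and 0.05 ± 0.07). Of 10 tested regulators of the pathway, 1 rose (Bach1, log2 0.50) and 1 fell (Mafg, -0.41) with AdipoRonPEG5 against vehicle. Mafg was also lower in AdipoRonPEG5 than in AdipoRon livers (-0.50). These 3 calls held in all 19 alternatives. Bach1 also rose with AdipoRon against vehicle (0.45 ± 0.09, edgeR adjusted p = 0.0227), a call that ended in 5 of 19.

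Nuclear receptors of drug and bile acid transport gave 0 rises and 3 falls among 13 tested with AdipoRonPEG5 against vehicle, 0 and 0 with AdipoRon against vehicle, and 0 and 1 between the compounds. Nr1i2, the pregnane X receptor, fell with AdipoRonPEG5 against vehicle (-0.30 ± 0.08, edgeR adjusted p = 0.0276), a call lost in 6 of 19 alternatives at an adjusted p of up to 0.118, among them those without vehicle 1, vehicle 2, AdipoRonPEG5 2 or AdipoRonPEG5 3. Ahr, the aryl hydrocarbon receptor, also fell (-0.82 ± 0.22, edgeR adjusted p = 0.026), a call that ended without vehicle 1, vehicle 2 or any AdipoRonPEG5 library (up to 0.0834). Nr1h4, the bile acid receptor, was not called in any comparison. Over all tested genes, 9.55% were called higher and 7.63% lower with AdipoRonPEG5 against vehicle. In that comparison the genes of glutathione synthesis and turnover gave 4 rises and 2 falls of 14. They were led by Ggt6, a relative of gamma-glutamyl transferase, at 25.8 ± 1.10 CPM in AdipoRonPEG5 against 13.5 ± 1.19 CPM in vehicle livers (0.94 ± 0.12, edgeR adjusted p = 0.000814). The synthesis genes Gclc, Gclm and Gss were not called in any comparison. The enzymes that make glucuronides and sulphates gave 6 rises and 5 falls of 20, among them Ugt2b35 (1.14 ± 0.14, edgeR adjusted p = 0.000591). With AdipoRon neither list had a call against vehicle.

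**Figure D5:**
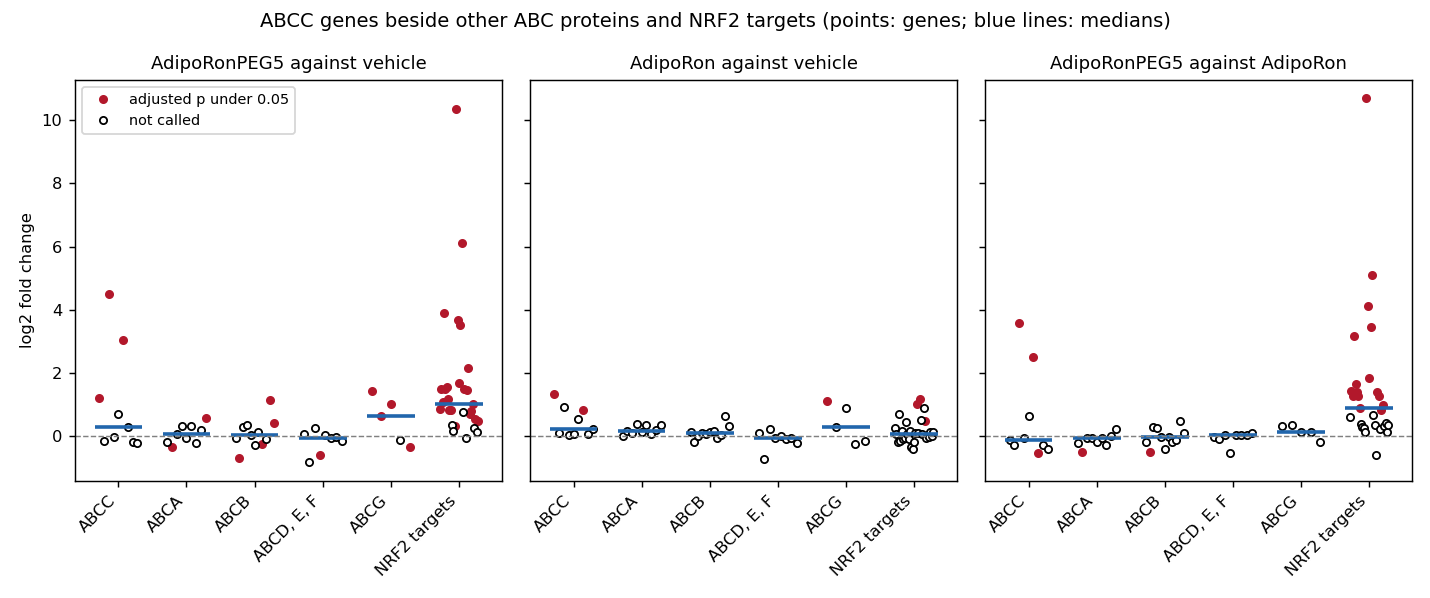
Log2 fold changes of the tested genes of the ABCC family, other ABC groups and NRF2 targets in the 3 comparisons; points are genes, filled where the edgeR adjusted p is under 0.05, and blue lines are medians. Abcc4 and Abcc12 lie above all other ABC proteins tested in both comparisons with AdipoRonPEG5 on top, and the NRF2 targets have medians of 1.02, 0.07 and 0.90.

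For the called members, the genes with the most similar pattern were found by Pearson r of log CPM among 11118 genes, over the 9 libraries; the group differences make up much of such an r, and it carries no test. Nearest to Abcc12 were Gstm2 (0.985), Blvrb (0.980), Gstm1 (0.979), Gstm3 (0.978) and Cbr3 (0.976). Abcc4 was nearest to Ccr2 (0.989), a receptor of recruited monocytes, and then to Gstm3 (0.982), Ctsd (0.981), Mvp (0.981) and Tmem8 (0.978). Ccr2 stood at 3.63 ± 0.33 CPM in AdipoRonPEG5 livers, 1.29 ± 0.24 CPM in AdipoRon livers and 0.929 ± 0.10 CPM in vehicle livers, and was the macrophage marker that rose between the compounds (1.47 ± 0.22, edgeR adjusted p = 0.00573); its part in the Abcc4 result was not tested. For Abcc1 the nearest were Tmem241 (0.979), Pik3r5 (0.977), Renbp (0.964), Sla (0.959) and Fzd4 (0.955). For Abcc5 they were Mndal (0.965), Fam13b (0.959), Ckap5 (0.945), Ccnyl1 (0.944) and Map3k5 (0.941).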

How the data were processed

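The deposited table gives, per the file headers, a whole-number read count and an FPKM value of the authors for each gene and library. Sample descriptions in the labels named the columns. The submitters' processing notes name edgeR, DESeq2, HTSeq 0.6.1, STAR 2.5 and TopHat, without saying what each was used for; build, annotation and strand setting are not given in the sources used here. Counts of all 9 libraries entered 1 quasi-likelihood fit of edgeR 4.0.16 in R 4.3.3 (1 mean per group, TMM scaling, robust = FALSE, without the replicate number as a block); filterByExpr kept 13151 genes, over which p-values were adjusted by Benjamini-Hochberg at a threshold of 0.05. CPM are TMM-scaled; FPKM served only to compare levels between genes. Count ratios have exact conditional binomial intervals at 95%, and these and the floor of 3 counts cover counting error only.

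Other settings tried were scaling by RLE or by total counts, dropping the filter or setting it to 1 CPM on average, limma-voom (limma 3.58.1) and DESeq2 1.42.0 as the test, a fit of just the 2 groups compared, a replicate block, each library left out, vehicle 1 thinned to 18508950 counts, and vehicle 3 with AdipoRonPEG5 1 left out; applying them to list genes was chosen after seeing the data. The fit was tested on simulated data. Members and the 28 gene lists (322 symbols, all found, 2 of them by another symbol) were chosen with earlier results of these data known. Named genes are all members, up to 4 called genes of a list by lowest p (the 2 lowest where none was called), 8 fixed regulators and partners, and the 5 nearest genes by Pearson r of each called member. A few other list genes are named beside the counts or sums of their list. Reads that could map to other genes were looked for as shared 50-base words in GENCODE M21 transcripts: 2.81% of words in Abcc9, 0.263% in Abcc2 and 0 in the other members. The Abcc10 span overlaps that of Dlk2, which had too few counts to be tested. Of the called list genes, 1 is counted in its list but not reported by name here.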

Additional observations from a re-analysis of the deposited data

How the results depend on the processing

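The AdipoRonPEG5 calls of Abcc4 and Abcc12 and the AdipoRon call of Abcc5 against vehicle held under every alternative; the log2 fold changes against vehicle ran from 2.93 to 3.19 for Abcc4 and from 4.13 to 4.84 for Abcc12 with AdipoRonPEG5, and from 0.72 to 0.93 for Abcc5 with AdipoRon. The Abcc1 call with AdipoRonPEG5 also ended with vehicle 3 and AdipoRonPEG5 1 left out (edgeR adjusted p = 0.0511). The AdipoRon value of Abcc3 changed sign without vehicle 3 (-0.338) and with vehicle 3 and AdipoRonPEG5 1 left out (-0.335), where fewer samples remained. It was also below 0 without AdipoRon 1 or AdipoRon 3, as given above. Over all libraries left out in turn it ran from -0.338 to 0.475, the highest without vehicle 1. Members called with AdipoRon against vehicle numbered 1, not 2, with only the 2 groups compared, with the replicate block and with those 2 libraries left out. With 1 library left out, members called ranged from 2 to 4 with AdipoRonPEG5 against vehicle, from 1 to 2 with AdipoRon against vehicle and from 2 to 3 between the compounds, and genes called over the whole table from 1337 to 2334, from 250 to 624 and from 233 to 1032, beside 2260, 684 and 709. Genes called with AdipoRon against vehicle were 325 with only the 2 groups compared; the replicate block gave 444, and 338 for AdipoRonPEG5 against AdipoRon. Same-numbered libraries did not deviate together over all tested genes (correlations of -0.268 to 0.077), so no pairing by number was seen. Deviations from means of 3 libraries cannot exclude a pairing that acts on part of the genes. Under the block the Abcc5 difference between the compounds was also no longer called (edgeR adjusted p = 0.0684). Total-count scaling moved the medians of all genes by at most 0.098 (log2) but the split of calls to 1700 higher and 584 lower with AdipoRonPEG5 against vehicle (1256 and 1004 with TMM) and to 883 and 64 with AdipoRon (500 and 184). The mean FPKM of Abcc5 in vehicle livers was 1.04 with TMM library sizes, beside 0.994. The causes of these changes were not tested. Counts were low for Abcc12 (2 to 7), Abcc4 (9 to 32) and Abcc1 (7 to 40) in the AdipoRon and vehicle libraries.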

Other observations

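Lists of genes around the substrates of single members held further calls. Over all tested genes, 9.55% were called higher and 7.63% lower with AdipoRonPEG5 against vehicle. The lists are small and had no test as a set, so their counts say little of a pathway. Of 10 listed leukotriene genes, whose product is carried by Abcc1, 4 were tested. Of these, 2 rose with AdipoRonPEG5 against vehicle: Alox5ap (log2 1.81 ± 0.24, edgeR adjusted p = 0.000907) and Mgst3 (1.37 ± 0.25, 0.00421). Of 11 tested genes of extracellular ATP and pyrophosphate, the pathway that Abcc6 feeds, 2 rose and 1 fell, among them the ATP-degrading Entpd1 at 5.75 CPM in AdipoRonPEG5 against 2.09 CPM in vehicle livers (1.46 ± 0.24, edgeR adjusted p = 0.0028) and the phosphate carrier Slc20a1 at 28.5 against 43.4 CPM (-0.60 ± 0.09, 0.00178). Abcc4 carries cyclic nucleotides and prostaglandins, and Abcc5 carries cyclic nucleotides. Of 12 tested genes around these substrates, 2 rose and 0 fell, led by Ptgs1 (1.06 ± 0.16, edgeR adjusted p = 0.00171). The membrane scaffolds Msn and Ezr rose with AdipoRonPEG5 (1.21 ± 0.15 and 0.91 ± 0.13; edgeR adjusted p = 0.000622 and 0.00137), 2 of 6 tested. All 7 named calls of AdipoRonPEG5 against vehicle held in every alternative. Of these 7 genes, 6 were also called, in the same direction, with AdipoRon against vehicle, namely Msn (0.98 ± 0.15, edgeR adjusted p = 0.00593), Ezr (0.71 ± 0.13, 0.0129), Ptgs1 (0.83 ± 0.16, 0.0167), Slc20a1 (-0.44 ± 0.09, 0.0221), Alox5ap (1.17 ± 0.25, 0.0236) and Entpd1 (0.98 ± 0.25, 0.0462). Of these AdipoRon calls, that of Msn held in every alternative and the others ended in some, without vehicle 1 or vehicle 2 among others (adjusted p of up to 0.146). Between the compounds those 6 were not called, and Mgst3 was higher with AdipoRonPEG5 (1.83 ± 0.26, edgeR adjusted p = 0.004). Macrophages also express several of these genes, and the part of the macrophage markers in them was not tested.

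The genes on either side of Abcc12 on GRCm38.p6, Phkb and Lonp2, had log2 fold changes of 0.36 and 0.31 with AdipoRonPEG5 against vehicle (edgeR adjusted p = 0.00921 and 0.0342), beside 4.51 for Abcc12.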
